A study of Rattus norvegicus with 12 samples.

Results

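The miR-29 family comprises 3 mature microRNAs, rno-miR-29a-3p, rno-miR-29b-3p and rno-miR-29c-3p (written below without the species prefix), which were taken by name from the 752 mature microRNAs listed for rat serum. Each is a guide arm, the strand of a microRNA hairpin that is retained by the silencing complex. Serum came from male Sprague-Dawley rats (Jcl:SD), 7 weeks old, after a single oral dose. Small RNA libraries were made from caffeine-treated rats (180 mg/kg), dextromethorphan-treated rats (200 mg/kg of the hydrobromide monohydrate), rats given both drugs at those doses, and vehicle-treated controls (sterile distilled water), with 3 libraries in each of the 4 groups. In the combination group dextromethorphan was given 1 h after caffeine, and blood was drawn 1 h after dextromethorphan. The design describes 5 rats per group. No label ties a library to its own rat, and the p-values therefore reflect variation among libraries that may be technical. Libraries are named as in the deposited columns (CAF, DEX, CAFDEX and ctrl with a number).

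A microRNA finds its targets mainly through its seed, the short stretch near its 5′ end that pairs with messenger RNA. The miR-29 family is best known for repressing genes of the extracellular matrix, among them fibrillar collagens, elastin and fibrillin, and in mouse heart its loss after infarction accompanies collagen build-up. It also represses DNA methyltransferases, and in mouse T cells it restrains interferon gamma. MicroRNAs reach serum from blood cells and from many tissues, so a serum level does not name its source, and release by more cells or more release per cell cannot be told apart.

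The mature sequences are shown because the members differ at few bases, which bears on how their reads were divided. They are RefSeq sequences from the GRCr8 table, written 5′ to 3′ with the seed (bases 2 to 8) in capitals.
miR-29a-3p: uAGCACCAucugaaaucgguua
miR-29c-3p: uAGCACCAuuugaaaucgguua
miR-29b-3p: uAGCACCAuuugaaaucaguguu
All 3 carry the same seed, and among 693 rat mature names in that table no other shares it. Counting from 1 at the 5′ end, miR-29c-3p differs from miR-29a-3p at 1 position (C10U). miR-29b-3p differs from miR-29c-3p by G18A, U21G and A22U and is 1 base longer.

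The genes sit in pairs. On chromosome 4 of the files' coordinates (rn6, per the submitters' processing notes) miR-29a-3p lies at 58343944 to 58343965 and a copy of miR-29b-3p at 58344318 to 58344340, both on the minus strand and 374 bases apart. On chromosome 13 another miR-29b-3p copy lies at 113782108 to 113782130 and miR-29c-3p at 113782638 to 113782659, both on the plus strand. The deposited table holds a further pair on chromosome 1, miR-29b-3p at 38238427 to 38238449 and miR-29c-3p at 38238957 to 38238978, with the same spacing of 530 bases as on chromosome 13. In the GRCr8 table miR-29b-3p comes from Mir29b1 on chromosome 4 and Mir29b2 on chromosome 13, and miR-29c-3p from Mir29c on chromosome 13. The 3 members thus occupy 6 rows of the table, and rows with the same name were summed. The 3 rows of miR-29b-3p held nearly the same value in every library, differing by at most 2.18% of their mean, and the 2 rows of miR-29c-3p were identical. Many of these counts were not whole numbers, as happens when multi-mapping reads are shared out in fractions, and the copies are not read as separate loci here.

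Values are FPKM, fragments scaled to the length of the mature microRNA and to the reads assigned to listed microRNAs. Because they are shares of the listed microRNAs, a rise in an abundant microRNA lowers the others. Assigned reads ranged from 403913 in DEX3 to 2625593 in ctrl3. Every dextromethorphan library and every library after both drugs was shallower than every control library. Erythrocyte, platelet, lymphocyte and hepatocyte markers were detected in every group. DEX2 and DEX3 were the shallowest libraries. Leaving both out leaves the dextromethorphan group with DEX1 alone, which the fit then assumes to vary like the other groups' libraries.

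miR-29a-3p made up most of the family. It took between 80.6% and 89.5% of the family's reads in each library, and ranked from 17 to 32 among the 752 names. Its mean FPKM over the 12 libraries was 7.57 times that of miR-29c-3p and 22.8 times that of miR-29b-3p. miR-29c-3p ranked from 50 to 82 and miR-29b-3p from 86 to 110. The whole family took 0.864% ± 0.0674 of reads after caffeine, 0.696% ± 0.180 after dextromethorphan, 0.883% ± 0.236 after both drugs and 0.553% ± 0.0712 in control (SD, n = 3 each).

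All 3 members had higher mean levels in each drug group than in control, by 1.17-fold to 1.92-fold on the log2(FPKM + 40) scale, but only miR-29b-3p after dextromethorphan passed the test, and narrowly. Fold changes, intervals and p-values below come from limma fitted to 366 microRNAs that met a filter on low values, which all 3 members met. A change passed when its Benjamini-Hochberg adjusted p, over those 366, was under 0.05.

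**Figure D1:**
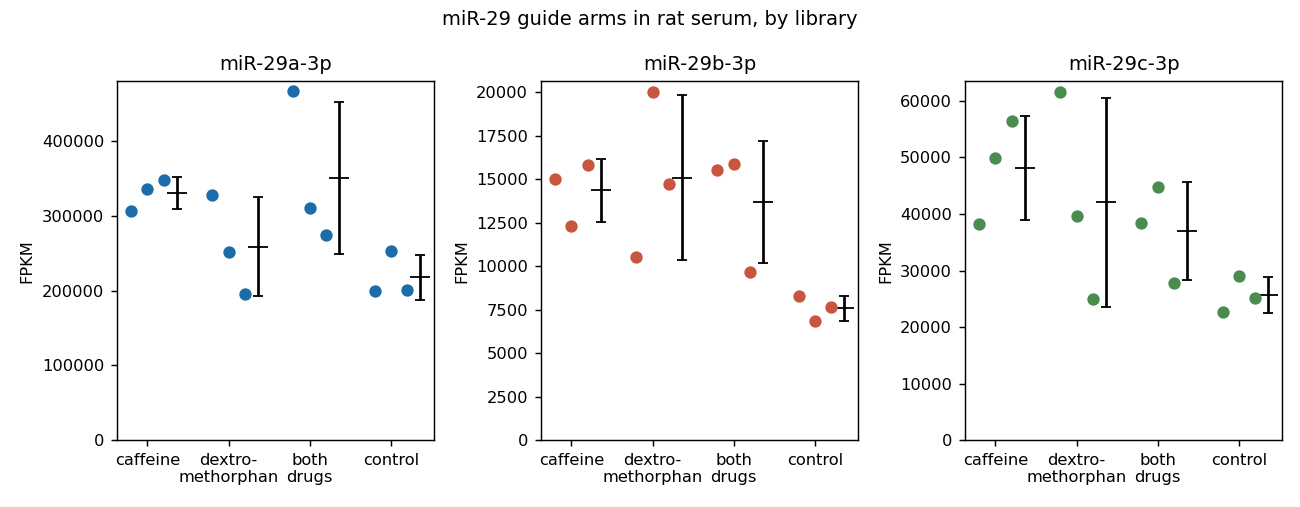
FPKM (linear axis from 0) of miR-29a-3p, miR-29b-3p and miR-29c-3p in each of 12 serum libraries, 3 per group; black bars give the group mean ± SD. For miR-29b-3p each drug group lies above the 3 controls, of which the highest is 8280 FPKM. Taken group by group, this was so for 26.0% of tested microRNAs after caffeine, 26.0% after dextromethorphan and 18.0% after both drugs. The share with every drug group above control was not computed. miR-29a-3p and miR-29c-3p overlap with control in some groups.

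The comparison of caffeine with control asked how caffeine alone changes circulating microRNAs. miR-29a-3p had 306064, 335631 and 347539 FPKM after caffeine, against 199884, 252676 and 201338 FPKM in control. miR-29b-3p had 14997, 12344 and 15798 FPKM after caffeine, against 8280, 6847 and 7680 FPKM in control. miR-29c-3p had 38188, 49895 and 56366 FPKM after caffeine, against 22746, 29015 and 25116 FPKM in control. For each member every caffeine library lay above every control library, which was also so for 26.0% of the 366 microRNAs.

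None of the members passed after caffeine, where 7.92% of tested microRNAs passed in either direction, 6.83% higher and 1.09% lower. miR-29b-3p was 1.88-fold control (95% interval 1.22 to 2.90, limma adjusted p = 0.0630). miR-29c-3p was 1.86-fold control (1.17 to 2.96, adjusted p = 0.0866) and miR-29a-3p 1.52-fold (1.05 to 2.21, adjusted p = 0.158). The members' unadjusted p-values were 0.00686, 0.0116 and 0.0306, each under 0.05 as for 24.9% of tested microRNAs. Over all tested microRNAs the median log2 fold change was 0.19, and the values of miR-29a-3p, miR-29b-3p and miR-29c-3p were 0.60, 0.91 and 0.90. These calls rested on how the spread was estimated, since all 3 members passed in a fit of the caffeine and control libraries alone (adjusted p = 0.0446 for miR-29a-3p and 0.0258 for each of the other members). More microRNAs passed in that fit in general, 65 of 366 (60 higher and 5 lower), against 29 in the main fit. Between the same groups the summed level of 3 striated muscle markers was 84701 to 202916 FPKM after caffeine and 8334 to 24837 FPKM in control, and miR-122-5p of hepatocytes was 3.05e+06 to 4.89e+06 FPKM after caffeine and 7.94e+05 to 2.25e+06 FPKM in control. The 3 lymphocyte markers summed to 1.15e+06 to 2.12e+06 FPKM after caffeine and 6.73e+05 to 1.00e+06 FPKM in control. The part of these markers in the members' levels was not tested. A haemolysis index, the log2 ratio of red-cell miR-451-5p to miR-23a-3p, ran from -7.11 to -6.40 after caffeine and from -7.83 to -7.11 in control. With it as a covariate the log2 fold change of miR-29b-3p was 0.56 ± 0.33 (SE, limma adjusted p = 0.420). miR-29a-3p was then at 0.59 ± 0.31 and miR-29c-3p at 0.99 ± 0.39, and neither passed. As the index and the treatment move together, they cannot be told apart.

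The comparison of dextromethorphan with control asked the same of the second drug, an antitussive that blocks NMDA receptors. miR-29b-3p had 10529, 19991 and 14748 FPKM in DEX1, DEX2 and DEX3, against 8280, 6847 and 7680 FPKM in control. Every dextromethorphan library lay above every control, as for 26.0% of tested microRNAs. It rose 1.92-fold (1.25 to 2.96, limma adjusted p = 0.0478) where 12.0% of tested microRNAs passed, 11.5% higher and 0.546% lower. It was also the only member with an unadjusted p under 0.05 by limma, as for 32.2% of tested microRNAs. Recovered counts behind these values were 217, 204 and 137 reads after dextromethorphan, and 401, 413 and 230 reads in ctrl1, ctrl3 and ctrl5. DEX1, the lowest of the dextromethorphan libraries, has a counting interval of 9178 to 12031 FPKM (exact Poisson, 95%, counting error only). It lies only just above the highest control interval, that of ctrl1 ending at 9137 FPKM. The interval of DEX3, with the fewest counts, was 12381 to 17433 FPKM.

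The more abundant members were highest in another dextromethorphan library than miR-29b-3p. miR-29a-3p had 327212, 252039 and 196037 FPKM in DEX1, DEX2 and DEX3, against 199884, 252676 and 201338 FPKM in control. DEX1 was above all controls and DEX3 below them. miR-29c-3p had 61540, 39638 and 24983 FPKM in the same dextromethorphan libraries, against 22746, 29015 and 25116 FPKM in control, again with DEX1 highest and DEX3 inside the control range. Their folds were 1.17 (0.803 to 1.70, limma adjusted p = 0.543) for miR-29a-3p and 1.54 (0.972 to 2.45, adjusted p = 0.172) for miR-29c-3p. With DEX1 as the only dextromethorphan library, the log2 fold change of miR-29c-3p was 1.27 ± 0.36 (SE, limma adjusted p = 0.0562), against 0.63 ± 0.31 with all 3, and that of miR-29a-3p was 0.59 ± 0.33 (adjusted p = 0.288), against 0.22 ± 0.25. With 0.47 as the median log2 fold change over all tested microRNAs, at 0.22 miR-29a-3p was below the median, and miR-29b-3p at 0.94 and miR-29c-3p at 0.63 were above it. Median-of-ratios scaling moved that median to 0.11, and with it miR-29a-3p was at -0.19, on the other side of 0. The same scaling moved the median after caffeine to -0.037, where the members were at 0.35, 0.66 and 0.65, and after both drugs to 0.088, where they were at 0.49, 0.65 and 0.34.

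The miR-29b-3p call after dextromethorphan ended under 19 of 24 alternatives. Without DEX2 and DEX3 its log2 fold change was 0.47 ± 0.37 (SE, limma adjusted p = 0.469), against 0.94 ± 0.29 with them. That value rests on DEX1 alone, with an error taken from the spread of the other groups. Quantile normalization gave 0.15 ± 0.24 (limma adjusted p = 0.703), and with median-of-ratios scaling it was 0.53 ± 0.26 (adjusted p = 0.170). The haemolysis index, which sets red-cell miR-451-5p over miR-23a-3p as a log2 ratio, ran from -6.47 to -5.13 after dextromethorphan and from -7.83 to -7.11 in control. With that index as a covariate the log2 fold change of miR-29b-3p was 0.089 ± 0.54 (adjusted p = 0.981). With the same covariate miR-29a-3p was at 0.19 ± 0.51 and miR-29c-3p at 0.86 ± 0.63, and neither passed. As the index and the treatment move together, they cannot be told apart. The 4 erythrocyte markers in the table summed to 4.53e+06 to 5.59e+06 FPKM after dextromethorphan and 4.32e+06 to 4.50e+06 FPKM in control, and none was at 0 in all 12 libraries. Within that erythrocyte sum, miR-451-5p was 3.45-fold control (limma adjusted p = 0.00226) and miR-144-5p 3.11-fold (adjusted p = 0.0352), and both passed. miR-144-3p was 3.74-fold control (adjusted p = 0.0818) and miR-16-5p 1.18-fold (adjusted p = 0.412), and neither passed. The 5 epithelial markers summed to 34140 to 125822 FPKM after dextromethorphan and 11580 to 16432 FPKM in control. Hepatocyte miR-122-5p had 2.68e+06 to 6.84e+06 FPKM after dextromethorphan and 7.94e+05 to 2.25e+06 FPKM in control. The part of the epithelial and hepatocyte markers in the result was not tested.

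**Figure D2:**
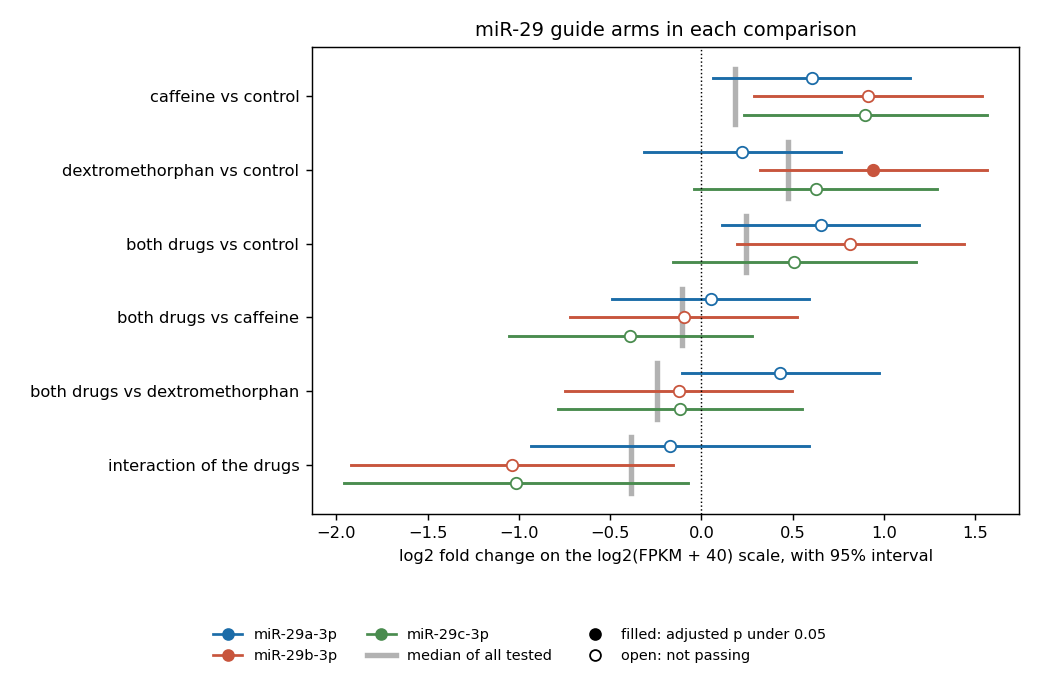
log2 fold changes of the 3 members with 95% intervals in 5 comparisons and the interaction; grey bars mark the median of all 366 tested microRNAs, and a filled point marks an adjusted p under 0.05. Only miR-29b-3p in dextromethorphan against control is filled, and its interval reaches from 1.25-fold to 2.96-fold.

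Serum after both drugs was compared with control to show the effect of the pair. miR-29a-3p had 465783, 310507 and 274243 FPKM after both drugs, against 199884, 252676 and 201338 FPKM in control. CAFDEX2 held the highest miR-29a-3p value of all 12 libraries, and the groups did not overlap. miR-29b-3p had 15557, 15856 and 9683 FPKM after both drugs, against 8280, 6847 and 7680 FPKM in control, again without overlap. miR-29c-3p had 38346, 44850 and 27785 FPKM after both drugs, against 22746, 29015 and 25116 FPKM in control, with CAFDEX6 inside the control range. Libraries after both drugs lay wholly above control for 2 of the 3 members and for 18.0% of tested microRNAs.

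No member passed against control after both drugs, where 10.9% of tested microRNAs passed, 6.56% higher and 4.37% lower. By unadjusted p under 0.05, 2 of the 3 members were counted (miR-29a-3p and miR-29b-3p, limma), beside 28.1% of tested microRNAs. The fold was 1.57 for miR-29a-3p (1.08 to 2.29, limma adjusted p = 0.104), 1.76 for miR-29b-3p (1.14 to 2.71, adjusted p = 0.0841) and 1.42 for miR-29c-3p (0.896 to 2.26, adjusted p = 0.310). Without CAFDEX6 miR-29b-3p passed with a log2 fold change of 1.05 ± 0.30 (adjusted p = 0.0359). In that setting 56 of 366 microRNAs passed, against 40 with all libraries. The median log2 fold change over all tested microRNAs was 0.24. The haemolysis index ran from -6.44 to -5.67 after both drugs and from -7.83 to -7.11 in control. With it as a covariate miR-29b-3p was at 0.13 ± 0.46 (SE, limma adjusted p = 0.941), against 0.82 ± 0.29 without it. With the covariate miR-29a-3p was at 0.63 ± 0.44, against 0.65 ± 0.25, and miR-29c-3p at 0.69 ± 0.54, against 0.51 ± 0.31, and neither passed. As the index and the treatment move together, they cannot be told apart. The lymphocyte markers summed to 1.92e+06 to 2.85e+06 FPKM after both drugs and 6.73e+05 to 1.00e+06 FPKM in control, and miR-122-5p had 3.40e+06 to 4.60e+06 FPKM after both drugs and 7.94e+05 to 2.25e+06 FPKM in control. The striated muscle markers summed to 28874 to 75324 FPKM after both drugs and 8334 to 24837 FPKM in control. Of the lymphocyte markers only miR-150-5p passed, at 4.61-fold control (limma adjusted p = 0.00118). miR-142-3p was 1.09-fold control and miR-142-5p 1.01-fold. None of the lymphocyte, hepatocyte and muscle markers was at 0 in all 12 libraries, and their part in the members' levels was not tested.

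**Figure D3:**
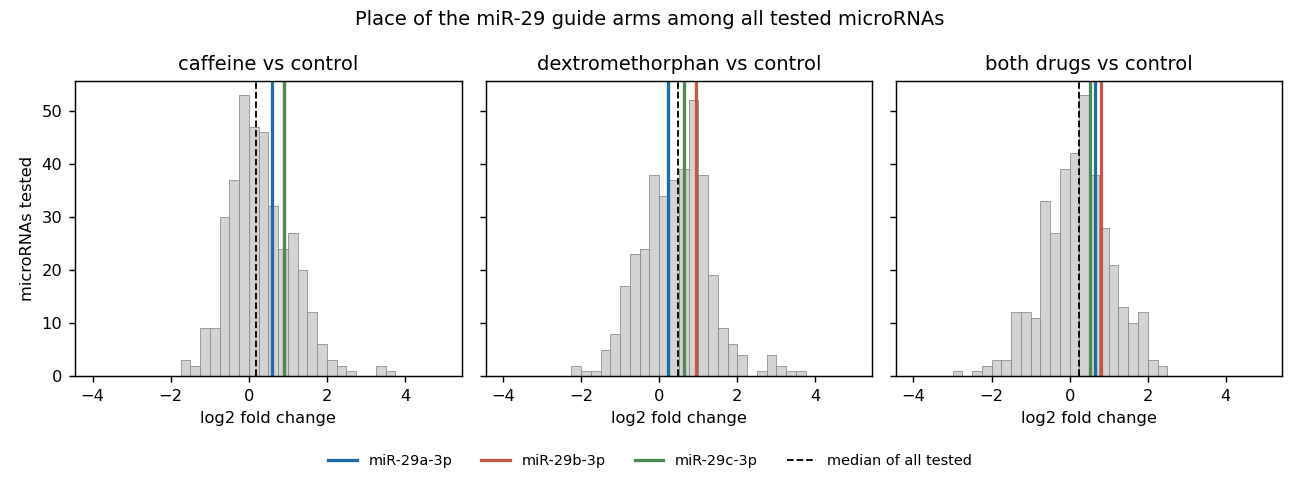
Distribution of log2 fold changes of the 366 tested microRNAs in each drug group against control, with the members as coloured lines and the median as a dashed line. The members lie on the higher side of the median except miR-29a-3p after dextromethorphan, which is at 0.22 with the median at 0.47. The lines of miR-29b-3p and miR-29c-3p coincide after caffeine, at 0.91 and 0.90.

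The members were not at the extremes of the tested microRNAs. After caffeine, 68.0%, 77.0% and 76.8% of microRNAs had a lower fold change than miR-29a-3p, miR-29b-3p and miR-29c-3p. After dextromethorphan the shares were 40.4%, 73.5% and 57.4% for the same members, and after both drugs 73.5%, 77.6% and 65.8%. The comparisons with control share their control libraries, so they are not independent of one another.

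Serum after both drugs was also set against each drug given alone. Against caffeine alone, the log2 fold change was 0.05 ± 0.25 for miR-29a-3p, -0.10 ± 0.29 for miR-29b-3p and -0.39 ± 0.31 for miR-29c-3p (SE, n = 3 per group; limma adjusted p = 0.956, 0.934 and 0.893). No microRNA of the 366 passed in that comparison by limma (0.0%) or by voom, and 22 had an unadjusted p under 0.05 (6.01%), none of them a member. As a ratio the interval for miR-29c-3p ran from 0.481 to 1.21, which takes in both a fall and no change. Against dextromethorphan alone the ratios were 1.35 for miR-29a-3p (0.928 to 1.96, limma adjusted p = 0.449), 0.917 for miR-29b-3p (0.595 to 1.41, adjusted p = 0.841) and 0.922 for miR-29c-3p (0.581 to 1.46, adjusted p = 0.869), where 3.55% of microRNAs passed, 0.273% higher and 3.28% lower. No member had an unadjusted p under 0.05 there, beside 16.1% of tested microRNAs, and none lay wholly above dextromethorphan, beside 3.83%. Against DEX1 alone the log2 fold change of miR-29c-3p was -0.76 ± 0.36 (SE, limma adjusted p = 0.318), against -0.12 ± 0.31 with all 3 dextromethorphan libraries.

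The interaction is the log2 change after both drugs minus the log2 changes after caffeine and after dextromethorphan, each against control. The departure was -1.04 ± 0.41 for miR-29b-3p and -1.01 ± 0.44 for miR-29c-3p (SE, limma adjusted p = 0.172 and 0.217), and -0.17 ± 0.36 for miR-29a-3p (adjusted p = 0.846). None passed, against 4.64% of tested microRNAs, all of them lower. By unadjusted p under 0.05, miR-29b-3p and miR-29c-3p were counted (limma), beside 21.3% of tested microRNAs. The median departure of all 366 microRNAs was -0.39, and with median-of-ratios scaling it was 0.10, on the other side of 0. With DEX1, its highest library, as the only dextromethorphan library, miR-29c-3p was at -1.66 ± 0.44 (limma adjusted p = 0.0442), which rests on that single library. In the same setting miR-29b-3p was at -0.57 ± 0.46 (adjusted p = 0.509), and with quantile normalization at -0.12 ± 0.34 (adjusted p = 0.882).

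By mean level, the groups ran in the order both drugs, caffeine, dextromethorphan and control for miR-29a-3p, and each pair of neighbours overlapped. For miR-29b-3p the order was dextromethorphan (15090 ± 4740 FPKM, SD, n = 3), caffeine (14379 ± 1808 FPKM), both drugs (13699 ± 3481 FPKM) and control (7602 ± 720 FPKM), and only the step to control was free of overlap. For miR-29c-3p it was caffeine (48150 ± 9214 FPKM), dextromethorphan (42054 ± 18398 FPKM), both drugs (36993 ± 8613 FPKM) and control (25626 ± 3166 FPKM), with overlap at each step.

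The balance within the family was measured as a ratio inside each library, which multiplying a library by a factor cannot alter. Quantile normalization is not such a factor. The miR-29b-3p level was 4.90%, 3.68% and 4.55% of the miR-29a-3p level after caffeine, 3.22%, 7.93% and 7.52% in DEX1, DEX2 and DEX3, 3.34%, 5.11% and 3.53% after both drugs, and 4.14%, 2.71% and 3.81% in control. DEX2 and DEX3 held the highest ratios and DEX1 lay within the control range. A difference between the 4 groups did not pass the test (exact permutation over 369600 assignments, p = 0.297, adjusted 0.297 over 2 ratios). Without DEX1 it passed (exact permutation, adjusted p = 0.0323).

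The miR-29c-3p level was 12.5%, 14.9% and 16.2% of the miR-29a-3p level after caffeine, 18.8%, 15.7% and 12.7% after dextromethorphan, 8.23%, 14.4% and 10.1% after both drugs, and 11.4%, 11.5% and 12.5% in control. All caffeine and all dextromethorphan libraries lay above all controls, the lowest caffeine library only just (12.48% against 12.47%), and both comparisons had a two-sided exact permutation p = 0.1, the smallest that 3 libraries against 3 allow (adjusted 0.3 over 6 tests). The mean log2 ratio was higher than in control by 0.29 after caffeine and by 0.40 after dextromethorphan, and the difference was -0.15 after both drugs (exact permutation p = 0.7). Across the 4 groups the exact permutation p was 0.122 (adjusted 0.243), and without CAFDEX3 the adjusted p was 0.0201.

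**Figure D4:**
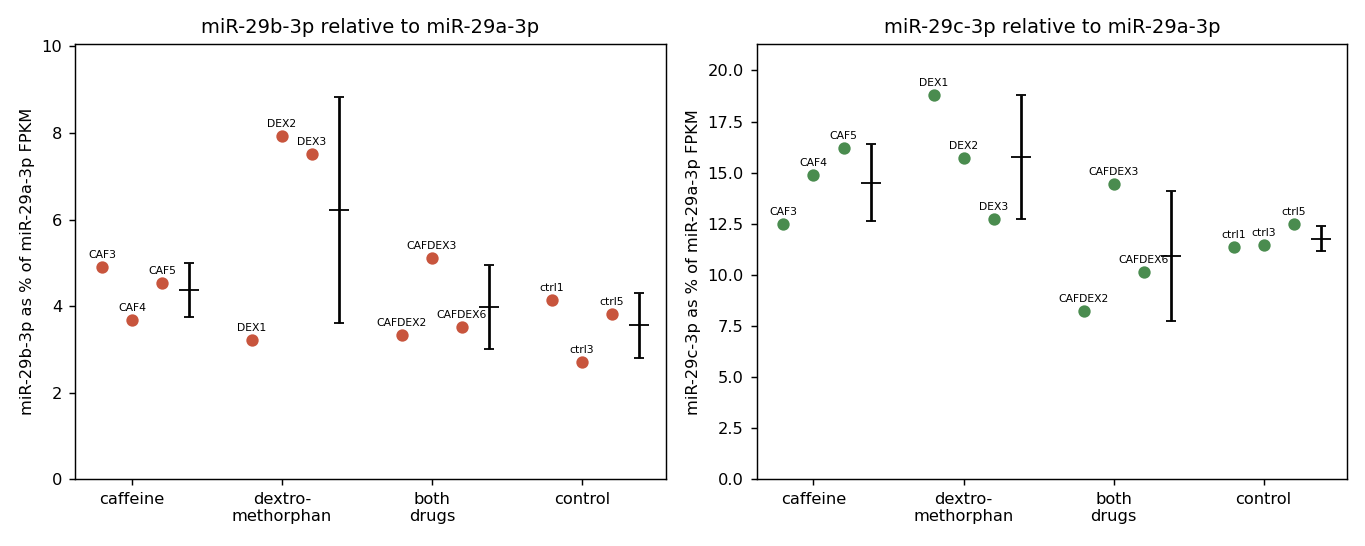
miR-29b-3p (left) and miR-29c-3p (right) as a percentage of the miR-29a-3p FPKM in the same library, with group mean ± SD in black. DEX2 and DEX3 stand highest on the left at 7.93% and 7.52%, while DEX1 is highest on the right at 18.8%.

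Across the 12 libraries, log2 levels of miR-29a-3p and miR-29c-3p had a Pearson r of 0.74 (Spearman 0.80), and their deviations from the group means had r = 0.75. miR-29b-3p had r = 0.44 with miR-29a-3p and 0.50 with miR-29c-3p, and after subtraction of group means -0.03 and -0.08. Members measured in the same library share its total and depth, and depth differed between libraries. These r are descriptions and carry no test. The higher r is that of members on different chromosomes that differ at 1 base, and the difference between these r was not tested. Recovered counts of miR-29a-3p were not whole numbers in 7 of 12 libraries although it has a single row, and the part of divided reads in its correlation with miR-29c-3p was not tested.

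The passenger arms, the opposite strands of the same hairpins, were scarce. Their sequences are given because 2 of them tell apart the miR-29b hairpins that the guide arm cannot, with bases 2 to 8 in capitals.
miR-29b-1-5p: uUUCAUAUggugguuuagauuu
miR-29b-5p: cUGGUUUCacaugguggcuuag
miR-29a-5p: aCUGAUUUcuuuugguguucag
miR-29c-5p: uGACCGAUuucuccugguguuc
miR-29b-1-5p, from the chromosome 4 hairpin Mir29b1, had 134.5 recovered counts in all 12 libraries together, against 38.32 for miR-29b-5p, from Mir29b2. Of the reads of both miR-29b passenger arms 77.8% were miR-29b-1-5p. This is the only measure here that separates the miR-29b hairpins, and it says nothing of how much guide each gives. miR-29a-5p had 12 counts beside 98591 of its guide, and was at 0 in 7 libraries, where a count of 0 allows up to 0.0220% to 0.172% of the guide's count. miR-29c-5p had 55 counts beside 12788.

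None of the 3 passenger arms that met the filter passed in any comparison, and miR-29a-5p did not meet it. miR-29b-1-5p averaged 363 ± 72.2 FPKM after caffeine, 296 ± 65.8 FPKM after dextromethorphan, 397 ± 321 FPKM after both drugs and 431 ± 84.2 FPKM in control (SD, n = 3 each), with log2 fold changes against control of -0.22, -0.49 and -0.52 (limma adjusted p = 0.855, 0.567 and 0.588). The miR-29b passenger arms together were 15.66 to 20 counts after caffeine, 2 to 12.34 after dextromethorphan, 2 to 19 after both drugs and 18 to 28.66 in control. As a share of all miR-29b reads they were 2.78% to 3.63% after caffeine, 1.44% to 5.38% after dextromethorphan, 0.718% to 4.86% after both drugs and 5.09% to 7.24% in control. These shares rest on few counts, and differences between the groups were not tested. miR-29c-5p had its lowest unadjusted p, 0.0149, in both drugs against dextromethorphan (log2 fold change -1.44 ± 0.52, SE, limma adjusted p = 0.165), on 1, 1 and 4 counts in CAFDEX2, CAFDEX3 and CAFDEX6 and 3, 4 and 3 in DEX1, DEX2 and DEX3.

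Other microRNAs linked in the literature to fibrosis and matrix were followed as a list of 24, all of them tested. The list was chosen with results of these samples known and is no independent evidence of a direction. After caffeine 4 rose, none fell and 20 did not pass, with a median log2 fold change of 0.18 beside 0.19 for all tested microRNAs, of which 7.92% passed. The 4 were miR-199a-3p of stromal cells (2.32-fold, limma adjusted p = 0.0419), miR-133a-3p of striated muscle (6.36-fold), miR-122-5p of hepatocytes (3.44-fold) and miR-192-5p of liver, gut and kidney (2.23-fold). After dextromethorphan 9 rose and 15 did not pass, with a median of 0.65 beside 0.47 for all tested microRNAs, of which 12.0% passed. Among the 9 were miR-199a-3p (2.25-fold, limma adjusted p = 0.0352), miR-101a-3p (2.12-fold, adjusted p = 0.0446), miR-222-3p (2.23-fold, adjusted p = 0.0446) and the epithelial miR-200a-3p, miR-200b-3p and miR-200c-3p (6.80-fold, 8.93-fold and 3.86-fold). After both drugs 4 rose and 20 did not pass, with a median of 0.43 beside 0.24 for all tested microRNAs, of which 10.9% passed. They were miR-122-5p, miR-133a-3p, miR-192-5p and miR-155-5p of activated immune cells (3.72-fold, limma adjusted p = 0.00740).

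The profibrotic miR-21-5p, one of the most abundant of the list, had log2 fold changes of -0.01 after caffeine, 0.55 after dextromethorphan and 0.30 after both drugs and did not pass (limma adjusted p = 0.971, 0.169 and 0.479). The abundant miR-30d-5p had -0.51, -0.21 and -0.33 and did not pass either (adjusted p = 0.228, 0.576 and 0.424). Between both drugs and caffeine alone none of the 24 passed by limma, as for all 366 microRNAs. Against dextromethorphan alone 3 fell after both drugs (miR-192-5p, miR-200a-3p and miR-200b-3p), beside 3.55% of tested microRNAs passing. In the interaction 5 passed, all lower, beside 4.64% of tested microRNAs.

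The microRNAs whose pattern over the 12 libraries was most like that of the summed family were miR-511-5p (Pearson r = 0.90 on the log2(FPKM + 40) scale), miR-674-3p (0.84), let-7b-3p (0.81), miR-199a-5p (0.75) and miR-673-5p (0.73). miR-674-3p averaged 9788 FPKM after caffeine, 7528 after dextromethorphan, 9271 after both drugs and 4843 in control. miR-511-5p averaged 249, 181 and 339 FPKM in the drug groups in that order and 75.6 FPKM in control, which is few reads per library. The summed family is mostly miR-29a-3p, so this likeness is to that member first: for miR-511-5p r was 0.90 with miR-29a-3p, 0.70 with miR-29c-3p and 0.44 with miR-29b-3p.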

How the data were processed

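Per the labels' protocols, 200 uL of serum went through the miRNeasy Micro Kit, and QIAseq libraries carried unique molecular indices added at reverse transcription. No source used here says whether reads were collapsed by index. The authors deposited FPKM per mature microRNA. Tools in the submitters' processing notes are cutadapt 3.7, STAR 2.7.10a, featureCounts, Subread 2.0.1 and DESeq2 1.20.0, with build rn6, and their roles are not stated.

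From these values, 836 rows were summed to 752 names. FPKM times length has the same total in each column, and fractional counts in steps of 0.01 accounted for 100% of values (tolerance 0.0001 of a read), which gave the assigned reads of each library. Between 65.4% and 75.0% of values above 0 were whole, and 1 read of a 22-base microRNA was worth 17.3 to 113 FPKM. The pseudocount was 40 FPKM (the median 10th percentile of values above 0, rounded), and 366 names were tested, those with a mean of 80 FPKM or more and a value above 0 in 3 or more libraries. The test was limma 3.58.1 in R 4.3.3 with the 4 groups in 1 model and a mean-variance trend (8 residual and 7.58 prior degrees of freedom), two-sided, and was tested on simulated data. The log2(FPKM + 40) scale understates changes of low microRNAs. Within-library ratios were compared by exact permutation. Counting intervals and limits of 0 counts (3 counts) cover counting error only. Figures and tables were made with Python 3.11.15, pandas 2.3.3 and matplotlib 3.10.9.

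The members, lists and rules were chosen with earlier results of these data known. Named were the members, the other arms of their hairpins, the 5 most similar patterns, and of the list of 24 its passing and most abundant members; the column numbers could not be matched to the numbers in the titles.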

Additional observations from a re-analysis of the deposited data

How the results depend on the processing

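No paired analysis was possible because the library numbers in the deposited columns do not match the replicate numbers of the labels. Of 459 alternative values for the members and ratios, 405 kept direction and side of the threshold. Only miR-29b-3p after dextromethorphan passed as reported, so for the rest this mostly means that they still did not pass. F ratios have no direction, and leaving out a library outside a comparison cannot move its fold change. The tally therefore says little about how firm the results are. The rise of miR-29b-3p after dextromethorphan (log2 0.94) kept its direction throughout but did not pass with no low-value filter (0.94), median-of-ratios scaling (0.53), quantile normalization (0.15), miR-191a-5p left out of the total (0.67), voom (0.92), the 2 groups alone (0.94), no mean-variance trend (0.94), the haemolysis covariate (0.089), without DEX2 and DEX3 (0.47), or with the largest row for the summed copies (0.92). Leaving out single libraries gave 0.71 to 1.18, and the call held only without DEX1, without CAFDEX3 or without CAFDEX6. It ended without any other single library, also those of the caffeine group, which enter this comparison only through the shared spread. After caffeine, miR-29a-3p (0.60), miR-29b-3p (0.91) and miR-29c-3p (0.90) passed with the 2 groups alone, miR-29b-3p with voom (0.92), and miR-29b-3p (0.91) and miR-29c-3p (0.90) without DEX2 and DEX3 or without DEX1 (single-library ranges 0.84 to 1.02 and 0.77 to 1.06). After both drugs miR-29b-3p passed without DEX2 and DEX3 (0.82), without DEX1 and without CAFDEX6 (range 0.69 to 1.05). The interaction of miR-29c-3p passed without DEX2 and DEX3 (-1.66). Values without both of these rest on DEX1 alone, assumed to vary like the other groups' libraries. Ratio tests passed without 1 library each, over ranges of F of 0.600 to 7.66 for miR-29b-3p and 1.85 to 6.87 for miR-29c-3p.

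Some signs turned. miR-29a-3p after dextromethorphan was -0.19 with median-of-ratios scaling, -0.072 with quantile normalization and -0.051 without miR-191a-5p; for both drugs against caffeine it was -0.059 without miR-191a-5p and -0.17 to 0.21 without single libraries, and its interaction was 0.33 with median-of-ratios scaling, 0.094 with quantile normalization and -0.40 to 0.014 without single libraries. For both drugs against dextromethorphan, miR-29b-3p was 0.12 with median-of-ratios scaling, 0.39 with quantile normalization, 0.041 with the covariate, 0.34 without DEX2 and DEX3 and -0.36 to 0.11 without single libraries, and miR-29c-3p was 0.13 and 0.19 under the same scalings and -0.44 to 0.21 without single libraries. For both drugs against caffeine miR-29b-3p was 0.030 with quantile normalization and -0.22 to 0.13 without single libraries. The log2 ratio of miR-29b-3p to miR-29a-3p after dextromethorphan minus control was -0.12 with DEX1 as the only dextromethorphan library, against 0.72 as reported, and after both drugs minus control it was -0.027 to 0.29 without single libraries, with -0.37 to 0.040 for miR-29c-3p. The cause of these changes was not tested. Over the alternatives the number of passing microRNAs was 4 to 65 for caffeine (29 as reported), 1 to 74 for dextromethorphan (44), 1 to 60 for both drugs against control (40), 0 to 24 against dextromethorphan (13), 7 to 38 for the interaction (17) and 0 throughout against caffeine. Among the 3 guides miR-29b-3p had the fewest counts, 137 to 547 a library.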

Other observations

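Antisense microRNAs listed over the miR-29 guides, miR-3556a on chromosome 4 opposite miR-29a-3p, miR-3587 opposite the miR-29b-3p copy there, and miR-3556b opposite miR-29c-3p on chromosomes 1 and 13, had 0 recovered counts in all 12 libraries. A count of 0 allows up to 3 counts a library, while the guide rows on the opposite strand had at least 1742 counts for miR-29a-3p, 45.67 for the chromosome 4 copy of miR-29b-3p and 111 for each copy of miR-29c-3p in every library.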
